A study of Mus musculus with 2 samples.

Results

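Tumour neutrophils are described here as 276 cells of 14899 in a single-cell table of CD45+ cells sorted from subcutaneous B16F10 melanomas. The cells were chosen by their own transcripts. A member carried tag 8, 9 or 10, showed 200 or more genes with no more than 25% of its molecules from mitochondria, and held at least 20 molecules of S100a8 plus S100a9 and at least 2 of Csf3r plus Cxcr2. It held no molecule of Ccr3, Siglecf or Alox15, which mark eosinophils, under 10 of C1qa, C1qb and C1qc together, which mark macrophages, and at most 1 of Cd3e, Cd3d and Trac together, which mark T cells. Those 13 genes made the class, so their levels are given as a description and support nothing below. The tags are named in the order 8, 9 and 10 throughout, and held 140, 47 and 89 neutrophils.

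B16F10 is a transplantable pigmented mouse melanoma line, and the tumours grew from WT, Tyr knockout or Oca2 knockout B16F10 cells in female C57BL/6 mice, 3 mice to a group. Tyr encodes tyrosinase and Oca2 a melanosomal transport protein, and the knockouts were in the injected tumour cells, not in the mice. Each group received a sample tag, so a tag pools the mice of its group, and all tags went through 1 capture and 1 whole transcriptome library. The sources used here do not name the genotype of a tag, so values are given by tag and genotypes were not compared. The spread between tags mixes genotype, mice and chance.

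Neutrophils are short-lived granulocytes that leave the bone marrow with preformed granules and enter tissue along gradients of CXC chemokines, which they sense through the receptor CXCR2, while CSF3R receives the growth factor G-CSF. S100A8 and S100A9 form calprotectin, an abundant cytosolic protein of these cells. In tumours neutrophils are known to outlive their counterparts in blood and to switch on cytokine, chemokine and hypoxia genes. The marker genes that the rule did not use were G0s2, which encodes an inhibitor of fat breakdown, and Mmp9, the gelatinase of neutrophil granules. G0s2 stood at 1488, 1118 and 964 CPM in the neutrophils of the 3 tags and Mmp9 at 977, 975 and 1084 CPM. CPM is the usual scaled count, here a gene's share of all molecules summed over the cells of a class in a tag, not divided by transcript length.

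The label was checked against markers of other cells, leaving out every gene that chose a class. Of the 5 remaining eosinophil markers Il5ra, Prg2 and Ear1 were at 0 in the neutrophils of all tags, and the 5 summed to 0 to 31.0 CPM against 208 to 578 CPM in eosinophils. Epx was at 0 in both classes. Ear2 went the other way, with all 8 molecules of the neutrophil sum and none in eosinophils. The 6 remaining T cell markers summed to 19.8 to 46.5 CPM against 2877 to 3395 CPM in T cells. The 6 remaining macrophage markers summed to 165 to 569 CPM against 1788 to 2361 CPM in monocytes, and the 5 remaining monocyte markers to 28.7 to 465 CPM against 2329 to 3553 CPM. Macrophages themselves were not used as a reference. With Siglech left in, which helped choose monocytes, the 8 dendritic markers summed to 119, 165 and 7.74 CPM against 122 to 181 CPM in monocytes. With Cd79a left in likewise, the 7 B and plasma cell markers summed to 35.2, 193 and 38.7 CPM against 30.9 to 49.9 CPM. The 6 melanoma markers summed to 2239 CPM in tag 8 against 122 and 58.1 CPM in the other tags. No molecule of Mpo, Elane, Prtn3, Ctsg or Ms4a3, the primary granule genes of immature neutrophils, was counted in any member.

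Median depth was 2427, 2088 and 2189 molecules per neutrophil, and the class totals were 454229, 139540 and 258253 molecules. Cells with more than 1 tag had been called multiplets by the deposited tag calls and were left out, and no cell index appeared under more than 1 tag. Pairs of cells with the same tag could not be seen this way, and no doublet caller was run. In all 4 members held over 10000 molecules, and together they carried 13.7% of all member molecules. The deepest, in tag 8, held 54434 molecules, of which 889 came from the pigment cell genes Pmel, Mlana, Dct and Tyrp1. A cell in tag 9 held 652 molecules of MHC class II genes among 20073, and 1 in tag 10 held 227 of them and 98 of the monocyte gene Ly6c2 among 27221. Without these cells the melanoma markers of tag 8 summed to 210.4 CPM and the same 5 monocyte markers of tag 10 to 126 CPM. The 6 remaining macrophage markers of tag 10 fell from 569 to 281 CPM, and the 5 monocyte markers of tag 8 from 216 to 127 CPM. Levels elsewhere include the 4 cells, and only some are also given without them. In comparisons with another class, the check without deep cells also left out 130 monocytes or 1 eosinophil over 10000 molecules. It cannot assign a change to the 4 neutrophils.

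Neutrophils made up 4.20% of the 3336 filtered cells of tag 8 (exact 95% interval 3.54 to 4.93%), 1.35% of 3486 in tag 9 (0.992 to 1.79%) and 2.43% of 3669 in tag 10 (1.95 to 2.98%). The intervals did not overlap between tags, but they cover counting error only, and with 1 pooled sample a tag no test was made. Eosinophils, taken by Ccr3, Siglecf and Alox15, made up 1.53, 2.47 and 2.48% of the same cells, and monocytes, taken by Ly6c2 or Chil3 with Csf1r, 9.38, 9.24 and 9.68%. The share of neutrophils moved with the cell filter. In the 3 tags 1190, 735 and 644 cells exceeded the mitochondrial limit. Without the filter on genes and mitochondrial molecules the neutrophil share of tag 8 was 3.13%.

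The threshold on S100a8 plus S100a9 cut through a continuous range. Members with 20 to 29 of these molecules numbered 55, had G0s2 at 1032 CPM, and 72.7% of them held a G0s2 molecule. Just outside, 103 cells with 10 to 19 such molecules met every other condition, and 48.5% of them held a G0s2 molecule at 681 CPM. Of cells on the receptor threshold, 38 members held exactly 2 molecules of Csf3r and Cxcr2, while 36 cells with 1 and 31 with none stayed outside. Those 31 cells without a receptor molecule still had G0s2 in 61.3% and Il1r2 at 2675 CPM. The limit on Ccr3, Siglecf and Alox15 also left out cells with neutrophil markers. In 38 cells that met every other condition, these genes held 1 or 2 molecules, and in 2 cells more. Of the 38, 55.3% held a G0s2 molecule and 92.1% an Mmp9 molecule, with Il1r2 at 3154 and Siglecf at 203 CPM. Whether they are neutrophils was not tested.

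The most abundant transcript of the neutrophils was that of Cxcl2, a chemokine that attracts further neutrophils through CXCR2. Cxcl2 stood at 50041, 58664 and 63480.4 CPM in the 3 tags. Next by the median of the tags were Fth1, the iron storage ferritin chain, at 28853, 30966 and 29061 CPM, and Srgn, the granule proteoglycan serglycin, at 14112, 14283 and 14230.2 CPM. Il1b, which encodes the cytokine interleukin 1 beta, stood at 9259.6, 9581 and 9417 CPM. The 3 tags lay within 1.27-fold for Cxcl2, 1.07-fold for Fth1, 1.01-fold for Srgn and 1.03-fold for Il1b. In all, 119 genes reached 1000 CPM in each tag and 1082 genes reached 100 CPM.

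Shares of cells with a molecule were compared after each cell had been thinned to 1000 molecules, which kept 275 of 276 neutrophils, 981 of 990 monocytes, 201 of 228 eosinophils and 1725 of 1728 T cells. T cells, which should lack most of these genes, give the level set by free RNA. Cxcl2 was found in 99.3% of thinned neutrophils (97.4 to 99.9%) and in 28.5% of thinned T cells, and in 100% and 67.2% before thinning. G0s2 was found in 59.3% (53.2 to 65.1%), against 0.408% of monocytes, 19.4% of eosinophils and 0.174% of T cells. Lcn2, the siderophore-binding protein lipocalin 2, was found in 32.4% of neutrophils and in no thinned eosinophil or T cell, which allows up to 1.49% and 0.174% of cells with a molecule at that depth. Before thinning G0s2 was in 73.9% of neutrophils, and Lcn2 in 45.3% of neutrophils, 0.439% of eosinophils and 0.231% of T cells. H2-Aa, an MHC class II chain, was found in 12.7% of neutrophils and 14.3% of T cells, so its share in neutrophils is read as background.

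**Figure D1:**
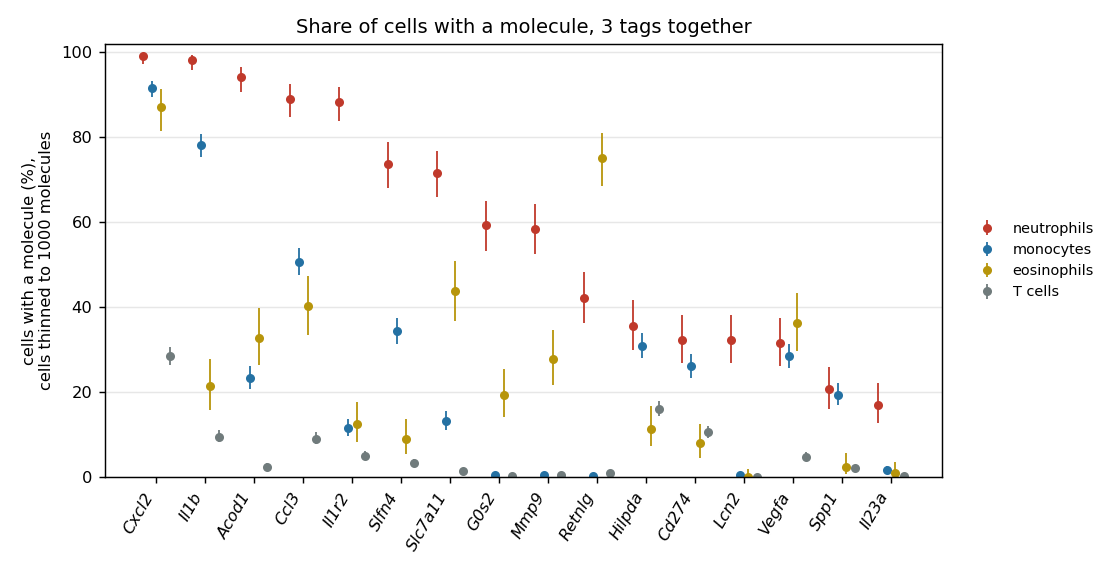
Share of cells with at least 1 molecule of each gene (y axis, percent) after thinning to 1000 molecules, over the 3 tags together, in neutrophils, monocytes, eosinophils and T cells. Bars are exact 95% intervals for counting error only. G0s2, Mmp9 and Lcn2 lie near 0 in monocytes and T cells, while Cxcl2 is found in 99.3% of neutrophils and 91.5% of monocytes.

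To place these cells among the blood-derived myeloid cells of the same tumours, molecules were summed by tag and tested against the 990 monocytes with edgeR's quasi-likelihood test, with the tag as a block. Of 7442 genes tested, 863 were higher in neutrophils (11.6%) and 610 lower (8.2%), 19.8% in either direction, at an adjusted p under 0.05 and at least 2-fold, here called higher or lower. Genes used to choose either class were not counted. Folds are on TMM-scaled totals, which put the median gene at -0.15 on the log2 scale, while plain library totals put it at -0.69. With library totals 503 genes were higher and 1726 lower, so the higher share of calls went from 58.6% to 22.6%. Of 151 called genes that belong to a list or to the highest and lowest folds, 24 lost their call with library totals. Counts by that scaling are given with the groups they changed. Median depth was 2281 molecules in neutrophils and 6076 in monocytes, and the part of depth in each result was not tested beyond thinning.

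Genes of neutrophil granules and of blood neutrophils stood far above the monocytes. G0s2 was at 1488, 1118 and 964 CPM in neutrophils and 1.45, 0.987 and 2.27 in monocytes, and no tag of 1 class overlapped the other (log2 difference 9.98, SE 0.32, adjusted p = 1.91e-11). The SE here and below is the absolute log2 difference divided by the square root of the test's F statistic. Such an SE can understate counting error where a class holds few molecules, as the monocytes do for G0s2. Retnlg, a resistin-like protein of circulating neutrophils, was at 1515, 860 and 1471 against 4.83, 5.92 and 4.08 CPM (log2 difference 8.503, SE 0.32, adjusted p = 1.12e-10). Of 10 genes listed as typical of blood neutrophils 10 passed the filter on low counts and 8 were higher, with a median log2 difference of 3.09 against -0.15 over all genes. Some, such as Wfdc21 with 0, 0 and 3 molecules in monocytes and Stfa2l1 with 4, 0 and 5, passed through the neutrophils only. A gene that passed so could hardly be other than higher, so the count and median, like those of other lists, are a description. Among them Lcn2 was at 561, 423 and 631 against 1.93, 3.45 and 3.63 CPM and the antiprotease gene Slpi at 2382, 3254 and 2184 against 381, 375 and 244 CPM. Both were higher in neutrophils in all tags. Cd177 and Ifitm6 were not called.

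Of 10 genes for secondary and tertiary granules 7 passed the filter, 1 of them, Chil3, had been used to choose monocytes, and 5 of the other 6 were higher. Mmp9 was at 977, 975 and 1084 against 9.66, 2.47 and 11.3 CPM (log2 difference 7.59, SE 0.33, adjusted p = 4.14e-10), and Mmp8, the neutrophil collagenase, at 145, 100.3 and 197 against 80.6, 50.3 and 32.7 CPM. Both genes were higher in neutrophils in each tag. Padi4, the enzyme that citrullinates histones in extracellular traps, was also higher, at 35.2, 28.7 and 15.5 against 7.73, 8.39 and 4.99 CPM, but not without tag 8 or without tag 9, where its log2 difference was 2.30 and 2.500. Ltf, Camp and Ngp, secondary granule genes of the bone marrow, were too low to test. Stefin A genes are near-identical copies, so the values of Stfa2l1, at 330.2, 416 and 283 against 1.93, 0 and 2.27 CPM, and of Gm5483 are uncertain.

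The neutrophils differed from monocytes in which chemokine genes they held. Of 12 chemokine genes 11 passed the filter, of which Cxcl2, Cxcl3 and Ccl3 were higher and Cxcl10, Cxcl16, Ccl2, Ccl5 and Ccl9 lower, with a median log2 difference of 0.02. Cxcl2, at 13144 to 18477 CPM in monocytes, was higher in the neutrophils of every tag (log2 difference 2.49, SE 0.21, adjusted p = 5.01e-07). Cxcl3, a close relative that also binds CXCR2, was at 2281, 2099.8 and 2962 against 1346, 562 and 523 CPM (log2 difference 2.26, SE 0.29, adjusted p = 3.66e-05). Cxcl1, the third of these ligands, was at 1211, 4028 and 5053 against 5614, 4163 and 3363 CPM, overlapped between the classes and was not called (log2 difference 0.02, SE 0.40, adjusted p = 0.986). Ccl3, which binds CCR1, was at 7232, 8772 and 12449 against 1473, 1079 and 898 CPM (log2 difference 3.57, SE 0.28, adjusted p = 2.03e-07), whereas its neighbour Ccl4 was at 2294, 2881 and 4503 against 3973, 2740.2 and 2009 CPM and was not called.

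The 3 CXCR2 ligand genes share a DNA motif beside their start. The stretches from 200 to 31 bases before the RefSeq start are printed because these genes lie on the same chromosome, hold the same run of 11 letters and include the leading transcript of the class. They are the RefSeq promoters of GRCm38.p6, plus strand, at chr5:90891045-90891214, chr5:90903699-90903868 and chr5:90785901-90786070, with capitals on GGGAATTTCCC, the longest run of letters common to the 3 stretches and a form of the binding sequence of NF-kappa B.
Cxcl1: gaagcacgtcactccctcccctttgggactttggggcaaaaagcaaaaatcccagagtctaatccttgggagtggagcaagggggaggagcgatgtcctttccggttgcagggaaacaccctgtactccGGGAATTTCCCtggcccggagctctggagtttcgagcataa
Cxcl2: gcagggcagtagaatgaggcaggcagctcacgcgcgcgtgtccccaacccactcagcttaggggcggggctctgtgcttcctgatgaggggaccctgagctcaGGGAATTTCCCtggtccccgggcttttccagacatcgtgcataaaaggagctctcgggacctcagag
Cxcl3: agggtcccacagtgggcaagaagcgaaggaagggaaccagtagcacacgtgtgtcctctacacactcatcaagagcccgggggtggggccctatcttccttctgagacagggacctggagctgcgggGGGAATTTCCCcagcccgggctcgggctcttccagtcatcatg
The motif begins 71, 97 and 73 bases before the start and was searched on both strands, as GGGAATTTCCC or GGGAAATTCCC. It lay in 10 of 32851 RefSeq promoter stretches of the same 170 bases (0.0304%), these 3 among them, and it was chosen from their letters. The match is a description of letters, and binding was not measured. In GENCODE vM21 all 3 are protein-coding genes, from 90891241 to 90893115 for Cxcl1, 90903871 to 90905938 for Cxcl2 and 90786103 to 90789600 for Cxcl3 on chromosome 5. Beside the shared letters their levels differed between classes, since Cxcl2 and Cxcl3 were higher in neutrophils than in monocytes and Cxcl1 was not called.

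Chemokines that draw monocytes and T cells were lower in neutrophils. Ccl2, the ligand of CCR2, was at 94.7, 64.5 and 484 against 3501, 1383 and 1779 CPM (log2 difference -3.14, SE 0.50, adjusted p = 0.00027), and Cxcl10, which draws T cells through CXCR3, at 46.2, 107 and 248 against 1091, 1685 and 1136 CPM (log2 difference -2.91, SE 0.37, adjusted p = 3.69e-05). No tag overlapped for either gene, though tag 10 was the highest of the neutrophils for both. Ccl9 was at 103, 115 and 441 against 2149, 1036 and 1050.5 CPM and Cxcl16 at 26.4, 50.2 and 42.6 against 172, 254 and 203 CPM. The Ccl9 call was lost without tag 9, where its log2 difference was -2.18. Ccl5 was lower at 83.7, 86 and 77.4 against 276, 424 and 159 CPM. Its call was lost without tag 9 (-0.86) and without the deep cells of both classes (-0.998).

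Of 15 cytokine and interleukin 1 genes 14 passed the filter, 9 were higher and 2 lower, with a median log2 difference of 1.45, and 6 were higher with library totals. Of 12 immediate early genes, which can rise while tissue is taken apart, 6 were higher too, or 2 with library totals, and their part in the cytokine and chemokine levels was not tested. Il1r2, the decoy receptor that binds interleukin 1 without signalling, was at 3978, 2773 and 3473 against 233, 129 and 151 CPM (log2 difference 4.88, SE 0.22, adjusted p = 5.26e-10). Il1rn, the receptor antagonist, was at 5200, 5969.6 and 6424 against 1982, 2261 and 1275 CPM (log2 difference 2.24, SE 0.23, adjusted p = 4.77e-06), and Il1rap, the shared receptor chain, at 169.5, 143 and 143 against 16.9, 14.8 and 17.7 CPM. In all 3 the lowest neutrophil tag lay above the highest monocyte tag. Il1f9, the file's name for the gene of interleukin 36 gamma, was at 1004, 1025 and 1181 against 2.41, 0.987 and 2.27 CPM (log2 difference 9.61, SE 0.32, adjusted p = 1.91e-11), among the 10 genes with the highest folds.

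Il1b was at 9259.6, 9581 and 9417 CPM against 6831, 6609 and 3229.5 CPM in monocytes (log2 difference 1.37, SE 0.24, adjusted p = 0.000555) and Il1a at 1405, 1326 and 1026 against 917, 664 and 388 CPM (log2 difference 1.53, SE 0.21, adjusted p = 8.31e-05). These 2 and Osm, which encodes oncostatin M, did not reach 2-fold with library totals, at 0.83, 0.998 and 0.66. Without tag 10 Il1b was at 0.94 and also not called. Csf1, the growth factor of macrophages, was at 550.4, 423 and 732 against 17.9, 39.5 and 33.1 CPM (log2 difference 4.82, SE 0.30, adjusted p = 2.23e-08), and Il23a, the p19 chain of interleukin 23, at 203, 229 and 558 against 35.7, 51.8 and 13.2 CPM (log2 difference 3.82, SE 0.50, adjusted p = 4.24e-05). Both were higher in neutrophils without overlap. Il10 went the other way at 35.2, 0 and 62 against 654, 371 and 389.8 CPM (log2 difference -3.24, SE 0.42, adjusted p = 4.09e-05), as did Il6 at 13.2, 28.7 and 34.8 against 245, 179 and 173 CPM. Tnf, at 1237, 2007 and 2184 against 1126, 1531 and 1600.5 CPM, was under 2-fold (log2 difference 0.86, SE 0.19, adjusted p = 0.00326).

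Receptors that guide granulocytes were mostly higher. Of 11 chemoattractant and related receptor genes all 11 passed the filter, 8 were higher and 2 lower. Fpr1 and Fpr2, receptors for formylated bacterial peptides, were at 291, 287 and 228 and 616, 537 and 774 CPM against 3.86, 4.44 and 5.45 and 66.6, 106 and 66.7 CPM in monocytes. Their log2 differences were 6.37 (SE 0.30) and 3.58 (SE 0.27). Ccr1 was at 1867, 2616 and 2079 against 336, 361 and 302 CPM, C5ar1, the complement C5a receptor, at 1376, 1619.6 and 1425 against 748, 481 and 421 CPM, and Trem1, which amplifies inflammatory signals, at 2873, 2680.2 and 2165 against 439.9, 274 and 208 CPM. These 5 genes were higher in neutrophils in every tag, without overlap. Cxcr4, the receptor that retains neutrophils in bone marrow, was at 440.3, 473 and 484 against 209, 188 and 362 CPM and under 2-fold with library totals (0.93). Ccr2, the monocyte homing receptor, was lower at 59.4, 7.17 and 128 against 889, 606 and 735 CPM, and C3ar1 at 19.8, 0 and 62 against 286, 239 and 254 CPM.

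Of 13 listed Fc and pattern receptor genes 12 passed, with 5 higher and 2 lower. Nlrp3, the sensor of the inflammasome that activates interleukin 1 beta, was at 5469, 5783 and 4937 against 1399, 1379 and 1091 CPM (log2 difference 2.61, SE 0.19, adjusted p = 1.01e-07). The C-type lectin genes Clec4d and Clec4e were at 3459, 4586 and 3524 and 3983, 5633 and 4922 CPM against 732, 559 and 433 and 1806, 1846 and 1056 CPM. All 3 were higher without overlap. The Fc receptor genes Fcgr1 and Fcgr2b were lower, at 2.2, 28.7 and 62 against 298, 275 and 343 CPM and 50.6, 35.8 and 143 against 819, 594 and 642 CPM.

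**Figure D2:**
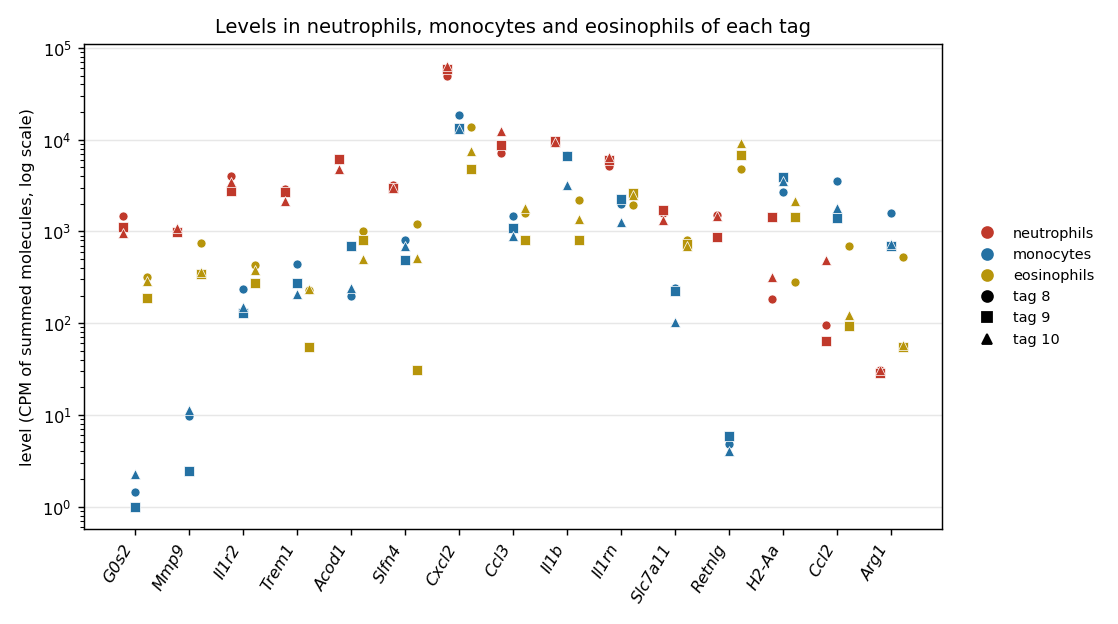
Level of 15 genes (y axis, CPM of summed molecules, log scale) in neutrophils, monocytes and eosinophils, with 1 point for each of tags 8, 9 and 10. G0s2, Mmp9, Il1r2 and Trem1 are highest in neutrophils, Retnlg is highest in eosinophils, and Ccl2 and Arg1 are highest in monocytes in every tag.

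Among transcription factors and their inhibitors, 14 of 16 listed genes passed, 8 were higher and 2 lower, or 5 and 3 with library totals. Cebpb, a factor of emergency granulopoiesis, was at 1625, 1577 and 1812 against 439, 539 and 593 CPM (log2 difference 2.22, SE 0.19, adjusted p = 6.89e-07), and Nfkbiz, an atypical NF-kappa B inhibitor, at 2891, 2788 and 2339 against 1049, 912 and 785 CPM (log2 difference 2.08, SE 0.19, adjusted p = 9.2e-07). Both lay above the monocytes in all tags. Nfkbia, Maff and Tgif1 were called, but not with library totals (0.96, 0.78 and 0.79). Cebpa was lower, at 33, 21.5 and 46.5 against 87.9, 107 and 126 CPM. Its call was lost without tag 8 (-1.08), tag 9 (-0.86) or the deep cells of both classes (-0.84).

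Survival genes were higher in part. Of 12 genes of survival and death all 12 passed, 6 were higher and none was lower, or 3 and 1 with library totals. Gadd45b, a stress-induced gene, was at 1182, 1118 and 1073 against 383, 376 and 394 CPM (log2 difference 2.08, SE 0.19, adjusted p = 1.25e-06), and Bcl2l1, which encodes the anti-death protein BCL-XL, at 108, 78.8 and 132 against 29.5, 44.4 and 41.7 CPM (log2 difference 2.06, SE 0.32, adjusted p = 0.000222). Mcl1, on which neutrophil survival depends, was at 3229.7, 3146 and 3148 against 2026, 1809.9 and 1761 CPM, without overlap, but at 0.77 with library totals and then not called. The Bcl2a1 genes are near-identical copies, and their values are uncertain.

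The oxidase that makes superoxide was uneven. All 6 listed genes passed, with 3 higher, Ncf1 and Rac2 among them, and Cybb lower, or 2 higher and 2 lower with library totals. Ncf1, which encodes the organizer subunit p47phox, was at 357, 473 and 314 against 155, 139 and 113 CPM (log2 difference 2.01, SE 0.22, adjusted p = 7.04e-06), and Cybb, the membrane subunit gp91phox, at 152, 136 and 348 against 916, 1357 and 1244 CPM (log2 difference -1.96, SE 0.27, adjusted p = 7.63e-05). Neither overlapped between classes.

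Some genes of metal and thiol handling were higher, with 3 of 14 listed and 13 passed. Slc7a11, the cystine importer, was at 1594, 1691 and 1332 against 242, 222 and 103 CPM (log2 difference 3.64, SE 0.25, adjusted p = 5.29e-08), and Gsr, glutathione reductase, at 660.5, 530.3 and 755 against 135, 128 and 116 CPM (log2 difference 2.89, SE 0.23, adjusted p = 2.37e-07). Fth1 was also higher (log2 difference 1.94, SE 0.17, adjusted p = 1e-06), and Prdx1 was lower (log2 difference -1.14, SE 0.22, adjusted p = 0.00137), though Prdx1 was at -0.95 without tag 10 and then not called. The glucose transporter gene Slc2a3 was at 284, 466 and 360.1 against 5.79, 6.41 and 15 CPM (log2 difference 5.90, SE 0.31, adjusted p = 2.57e-09). Most glycolysis genes were not called, with 3 of 17 listed and 16 passed higher, or 2 higher and 1 lower with library totals. Pfkfb3 lost its call there (0.95), and Gapdh stood at 1451, 960.3 and 1204 against 1835, 1566 and 1604 CPM (log2 difference 0.05, SE 0.19, adjusted p = 0.878). The CPM of Gapdh was lower in the neutrophils of each tag while the TMM-scaled difference was near 0.

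Of 12 genes linked to tumour neutrophils all 12 passed and 5 were higher, with a median log2 difference of 0.85. Without the deep cells of both classes 8 were higher, and with library totals 2 were higher and 1 lower. Tnfrsf23, a decoy receptor for the death ligand TRAIL, was at 143, 150.5 and 194 against 15.5, 10.4 and 11.8 CPM (log2 difference 4.21, SE 0.32, adjusted p = 1.86e-07), without overlap. Hilpda, a hypoxia-induced lipid droplet gene, was at 927, 1139 and 1506 against 711, 629 and 478 CPM and Cd274, which encodes PD-L1, at 515, 932 and 352 against 222, 510.1 and 289.5 CPM. With library totals these 2 and Ero1l were not called (0.96, 0.80 and 0.73), and Ero1l was also lost without tag 9 (1.27) or tag 10 (0.86). Vegfa, the vascular growth factor, was at 594, 494 and 600.2 against 543, 419 and 563 CPM, overlapped and was not called (log2 difference 0.69, SE 0.19, adjusted p = 0.0161).

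Arginine enzymes differed in opposite directions. Arg1, which depletes arginine in suppressive myeloid cells, was at 30.8, 28.7 and 31 against 1597, 693 and 724 CPM (log2 difference -4.58, SE 0.31, adjusted p = 5.29e-08), while its mitochondrial relative Arg2 was at 337, 387 and 352 against 149, 127 and 116 CPM (log2 difference 1.99, SE 0.22, adjusted p = 8.8e-06). Of 11 genes listed for suppression 10 passed, 4 were higher and 2 lower. Without the deep cells of both classes these were 7 and 2, and with library totals 3 and 2. Ptgs2, the inducible prostaglandin synthase, was abundant in both classes, at 3214, 3719 and 3717 against 3366, 3038 and 1860 CPM, and was under 2-fold (log2 difference 0.94, SE 0.22, adjusted p = 0.00658). Acod1, which makes itaconate, was at 6045, 6091 and 4732 against 199, 687 and 243 CPM (log2 difference 4.66, SE 0.31, adjusted p = 4.63e-08).

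Antigen presentation genes were lower. All 7 MHC class II genes passed the filter and all 7 were lower, with a median log2 difference of -2.35. The count was 7 without the deep cells of both classes as well. H2-Aa was at 183, 1433 and 318 against 2709, 3933 and 3569 CPM (log2 difference -2.40, SE 0.35, adjusted p = 0.00012), and Cd74, the invariant chain, at 365, 1799 and 829 against 3898, 6007 and 5271 CPM. In tag 9 a single deep cell carried most of these molecules, and without it H2-Aa stood at 368 CPM there.

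Of 12 genes induced by interferon gamma all 12 passed, none was higher and 5 were lower, or 8 with library totals, with Cxcl9 at 19.8, 14.3 and 19.4 against 60.4, 845 and 519 CPM (log2 difference -3.39, SE 0.50, adjusted p = 0.000154). Gbp3 and Gbp5 were lower too, but each lost its call when a tag was left out. Gbp3 was at -1.65 without tag 9, and Gbp5 at -0.98 without tag 8 and -2.17 without tag 9. Genes induced by type I interferon were divided, with 4 of 13 listed and passed higher and 2 lower. With library totals 2 were higher and 2 lower, and Ifit1 and Ifit3 lost their calls (0.71 and 0.66). Slfn4, a schlafen gene of myeloid cells, was at 3190, 3009.9 and 2982 against 811, 492 and 692 CPM (log2 difference 2.76, SE 0.20, adjusted p = 9.59e-08), and the antiviral gene Mx1 was lower, with 1 molecule in all neutrophils.

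The genes with the highest folds were nearly absent from monocytes. Chil1, a chitinase-like protein, had 115, 63 and 64 molecules in the neutrophils of the 3 tags and 0, 0 and 1 in the monocytes. Wfdc21 had 149, 31 and 83 against 0, 0 and 3 molecules, and Asprv1, a skin-type protease, was at 731, 803 and 523 against 1.45, 0.987 and 0 CPM. Mrgpra2b and Ankrd22 had no molecule in any monocyte and were at least 128-fold and at least 101-fold higher, counted against a floor of 3 molecules over the class. Mrgpra2b has a near-identical copy, so its count is uncertain. Among the lowest genes Ccl24, an eosinophil-attracting chemokine, had 1, 0 and 0 molecules in neutrophils and 302, 183 and 144 in monocytes, and Dab2, an endocytic adaptor, was at 28.6, 7.17 and 7.74 against 682, 339 and 357 CPM (log2 difference -4.37, SE 0.33, adjusted p = 1.52e-07).

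A few calls changed when the deep cells of both classes were left out. Of 12 proliferation genes 10 passed and 4 were higher, but in that fit 1 was higher and 1 lower. The part of the 4 deep neutrophils in this change was not tested. Hmgb2, a chromatin protein that is not limited to dividing cells, was at 531, 509 and 399 against 210, 256 and 247 CPM, without overlap. Birc5, Pclaf and Rrm2, which mark dividing cells, had 36, 5 and 1, 59, 38 and 1 and 54, 6 and 0 molecules in the neutrophils of the 3 tags and overlapped with the monocytes. Their calls were also lost without tag 9 (2.33, 2.81 and 2.72), and those of Birc5 and Rrm2 without tag 8 (1.32 and 1.53).

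**Figure D3:**
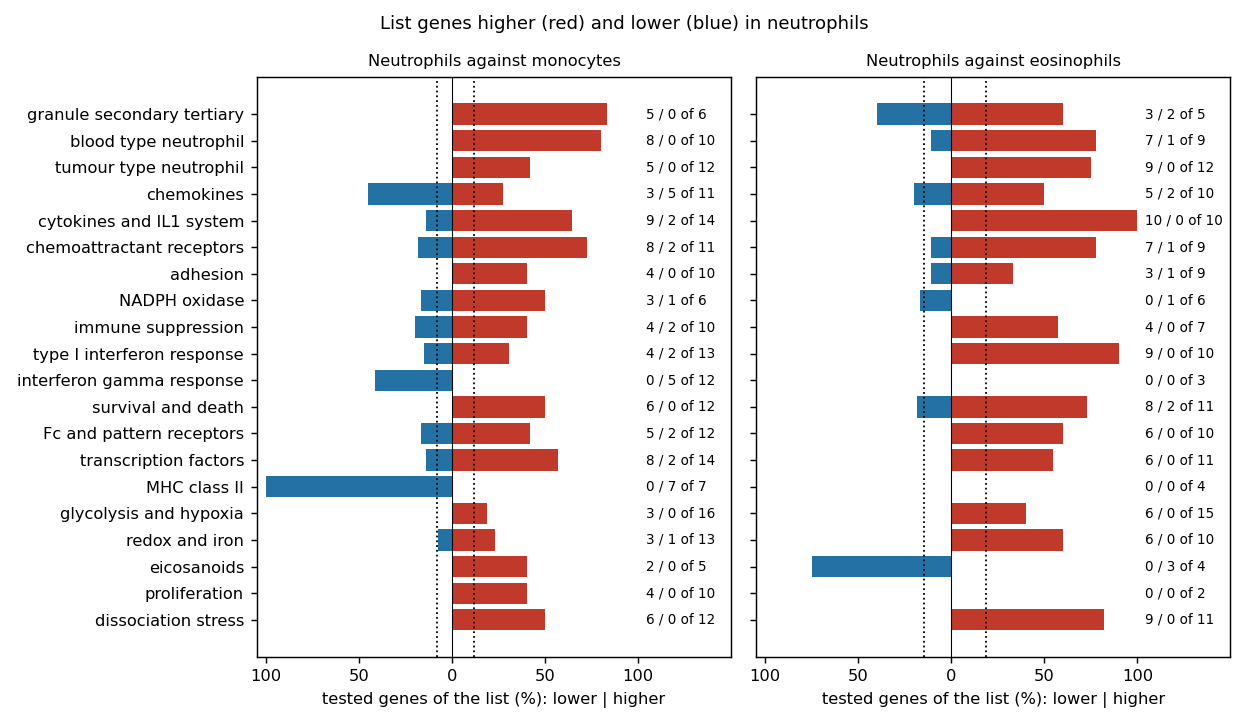
Percent of the tested genes of each list that were higher (red, to the right) or lower (blue, to the left) in neutrophils, against monocytes and against eosinophils. Numbers give higher and lower genes of those tested, and dotted lines mark the same percentages over all genes tested, 11.6% and 8.2% on the left and 18.9% and 14.8% on the right. All 7 MHC class II genes are lower than in monocytes, and all 10 tested cytokine and interleukin 1 genes are higher than in eosinophils. Genes that did not pass the filter on low counts are not drawn, and a gene could pass through the neutrophils only.

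The second comparison was with eosinophils, the other granulocyte of these tumours, taken as 51, 86 and 91 cells with a median of 1328.5 molecules. It uses the same neutrophil sums, so the results of both comparisons are not independent. Of 2333 genes tested 441 were higher in neutrophils (18.9%) and 346 lower (14.8%), 33.7% in either direction. The median gene lay at -0.02 with TMM factors and at -0.68 with library totals, with which 260 genes were higher and 862 lower. The share of higher calls then went from 56.0% to 23.2%.

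Inflammatory cytokine genes again stood above. Of the 15 cytokine and interleukin 1 genes 10 passed the filter and all 10 were higher, with a median log2 difference of 3.22. Some, such as Il1rap with 1, 2 and 1 molecules in eosinophils, passed the filter through the neutrophils only. Il10, Tgfb1, Il6, Il12b and Il18 did not pass and could not be called. The count therefore describes the genes that passed and not the whole list, as in the other list counts. Il1b was at 2224, 796 and 1358 CPM in eosinophils against 9259.7 to 9581 in neutrophils (log2 difference 3.38, SE 0.27, adjusted p = 9.47e-06), and Tnf at 415, 141 and 316 CPM (log2 difference 3.26, SE 0.35, adjusted p = 5.55e-05). Osm was at 281, 203 and 201 CPM (log2 difference 2.80, SE 0.21, adjusted p = 8.48e-06), and Il1f9 had 1, 0 and 0 molecules in the eosinophils of the 3 tags. For all of these the lowest neutrophil tag exceeded the highest eosinophil tag. Of the 12 immediate early genes 11 passed and 9 were higher as well, or 8 with library totals, and their part in these levels was not tested.

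Of the 12 chemokine genes 10 passed, 5 were higher than in eosinophils and 2 lower. Cxcl2 was at 13574, 4793 and 7522 CPM in eosinophils (log2 difference 3.44, SE 0.29, adjusted p = 1.3e-05), Cxcl3 at 549.8, 648 and 740 CPM (log2 difference 2.49, SE 0.19, adjusted p = 8.48e-06) and Ccl3 at 1588, 796 and 1789 CPM (log2 difference 3.39, SE 0.24, adjusted p = 5.3e-06). These 3 did not overlap with neutrophils in any tag. Cxcl1 was higher too (log2 difference 2.69, SE 0.69, adjusted p = 0.0105), but at 1576, 211 and 826 CPM in eosinophils it overlapped, and it was not called without tag 9 (1.71) or tag 10 (2.33). Ccl6 and Ccl9 were lower in neutrophils, with Ccl6 at 1915, 1046 and 2037 against 8345, 7103 and 7737 CPM (log2 difference -1.68, SE 0.20, adjusted p = 0.00013).

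Several genes often used to name neutrophils were shared with eosinophils. Retnlg was lower in neutrophils, at 1515, 860 and 1471 CPM against 4741, 6877 and 9289 CPM (log2 difference -1.85, SE 0.26, adjusted p = 0.000293), although 7 of the 9 tested blood neutrophil genes were higher. Mmp9 was at 745, 343 and 359 CPM in eosinophils (log2 difference 1.72, SE 0.25, adjusted p = 0.000402) and G0s2 at 318, 187 and 287 CPM (log2 difference 2.74, SE 0.22, adjusted p = 9.48e-06), each below every neutrophil tag yet far above the monocytes. Mmp25 and Padi4 were lower in neutrophils, at 57.2, 86 and 69.7 against 171, 328 and 402 CPM and 35.2, 28.7 and 15.5 against 171, 85.9 and 122 CPM. Both calls were lost without tag 10 (-1.16 and -1.43) and that of Mmp25 without tag 9 (-1.501). Wfdc21 had no molecule in eosinophils and was at least 35.9-fold higher, and Lcn2 had 1, 0 and 0 molecules there against 255, 59 and 163 in neutrophils.

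Receptor genes mostly separated the granulocytes as well. Of 11 chemoattractant receptor genes 9 passed, 7 were higher and C3ar1 was lower. Fpr2 was at 36.7, 7.81 and 21.6 CPM in eosinophils (log2 difference 5.53, SE 0.34, adjusted p = 3.59e-06), Trem1 at 232, 54.6 and 237 CPM (log2 difference 4.52, SE 0.36, adjusted p = 9.74e-06) and C5ar1 at 293, 141 and 229.9 CPM (log2 difference 3.35, SE 0.26, adjusted p = 8.48e-06), all without overlap. Ptafr was under 2-fold with library totals (0.42), and the call of C3ar1 was lost without tag 9 (-1.40) or tag 10 (-2.43). Tlr2, which senses bacterial lipoproteins, was at 599, 494 and 561 against 48.9, 31.2 and 28.7 CPM (log2 difference 4.52, SE 0.29, adjusted p = 4.33e-06).

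Type I interferon genes were higher than in eosinophils for 9 of the 10 tested of 13 listed. Slfn4 was at 1197, 31.2 and 510.1 CPM in eosinophils (log2 difference 3.45, SE 0.61, adjusted p = 0.00139) and Rsad2 at 467, 523 and 585 against 391, 78.1 and 229.9 CPM (log2 difference 1.87, SE 0.36, adjusted p = 0.00215), without overlap for either. Irf7, Isg15 and Slfn5 were under 2-fold with library totals (0.86, 0.44 and 0.73). Leaving out tag 9 or tag 10 ended the calls of Ifit1 (1.96 and 2.001) and Ifit3 (1.41 and 2.72).

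Other groups differed from eosinophils in both directions. Cybb was at 1161, 882 and 1228 CPM in eosinophils and lower in neutrophils (log2 difference -1.85, SE 0.25, adjusted p = 0.000263), the only called gene of the 6 oxidase genes, of which 4 were lower with library totals. The leukotriene genes Lta4h, at 19.8, 57.3 and 27.1 against 195, 187 and 136 CPM, and Alox5, at 96.9, 71.7 and 85.2 against 257, 273 and 266 CPM, were lower, and so was Pla2g7 (log2 difference -1.62, SE 0.18, adjusted p = 6.53e-05). The Alox5 call was lost without the deep cells of both classes (-0.81), without tag 9 (-0.93) and without tag 10 (-1.02). Cd274 was higher, at 97.7, 125 and 108 CPM in eosinophils (log2 difference 2.93, SE 0.27, adjusted p = 2.43e-05), as were Spp1, which encodes osteopontin (log2 difference 4.24, SE 0.32, adjusted p = 7.84e-06), and Arg2 (log2 difference 4.18, SE 0.35, adjusted p = 1.3e-05). None of the 4 MHC class II genes that passed was called, and H2-Aa was at 281, 1436 and 2134 CPM in eosinophils (log2 difference -0.57, SE 0.44, adjusted p = 0.322). Vegfa, at 635, 640.1 and 632 CPM in eosinophils, was not called either (log2 difference 0.40, SE 0.19, adjusted p = 0.11).

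Variation among the neutrophils was read along the blood-type genes. After thinning, 200 of 275 cells (72.7%) held a molecule of any of 3 such genes, Retnlg and Mmp8 among them, with 77.0, 66.0 and 69.7% in the tags. The split is a range of counts and not a cell type, since 49 cells held exactly 1 such molecule. Cells without such a molecule numbered 32, 16 and 27, so tag 9 lay under the 20 cells asked of a class in the other comparisons. Median depth before thinning was 2249 molecules in cells with a molecule and 2529 in those without.

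Of 484 genes tested between these cells none was higher (0%) and 1 was lower (0.207%), while 74 had an unadjusted p under 0.05, and DESeq2 also called none higher and 1 lower. The lower gene was Cxcl1, at 1206, 2613 and 2952 CPM in cells with a blood-type molecule and 1781, 5812 and 7074 CPM in those without (log2 difference -1.09, SE 0.20, adjusted p = 9.87e-06). It was lower in each tag, but the groups overlapped over the tags. The call held without tag 9 (-1.01) and was lost without tag 8 (-1.25), without tag 10 (-0.90) and without the block by tag (-1.20). In all 11 genes had an adjusted p under 0.05, the other 10 by less than 2-fold. Among them Ccl3 was at 7439, 8032 and 9871 against 9906, 14062 and 16889 CPM (log2 difference -0.73, SE 0.15, adjusted p = 0.000136), Tnf at 1103, 2258 and 1177 against 2344, 2125 and 3481 CPM (log2 difference -0.99, SE 0.23, adjusted p = 0.00112) and Hilpda at 822, 645 and 984 against 938, 1562 and 2407 CPM (log2 difference -0.96, SE 0.26, adjusted p = 0.0165). Slpi went the other way, at 2757, 4839 and 2597 against 1969, 1875 and 1593 CPM (log2 difference 0.75, SE 0.22, adjusted p = 0.0271).

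Genes that differed between the tags are values without a test. Among genes at 100 CPM or more in each tag the widest ratios were those of H2-Aa (7.84), H2-Eb1 (7.36), H2-Ab1 (7.23), Cd74 (4.92) and Spp1 (4.69). The MHC class II ratios rested on the deep cell of tag 9, and without the 4 deep cells H2-Aa fell to a ratio of 2.58 and Cd74 to 1.35. Without those cells the widest ratios were those of Spp1 (4.33), Cxcl1 (3.50), Hmox1 (3.33), Irf1 (3.31) and Jun (3.24).

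Spp1 was at 511, 322 and 1514 CPM, highest in tag 10, where its exact Poisson 95% interval of 1368 to 1672 CPM lay above the intervals of the other tags. Cxcl1 was lowest in tag 8, at 1211, 4028 and 5053 CPM, while the monocytes of tag 8 had the highest Cxcl1 of their class, at 5614 CPM. Irf1, an interferon-induced factor, was highest in tag 9, at 163, 523 and 228 CPM in neutrophils and 150.2, 384 and 296 CPM in monocytes. Cd274 was also highest in tag 9 in both classes, and Gbp2, at 96.9, 294 and 89.1 CPM in neutrophils and 141, 768 and 386 CPM in monocytes, too. Hmox1, which degrades heme, was at 341, 1111 and 546 CPM in neutrophils, highest in tag 9, and near level in monocytes at 616, 610.2 and 655 CPM. The tags differ in genotype, mice and mitochondrial share, which cannot be told apart here.

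**Figure D4:**
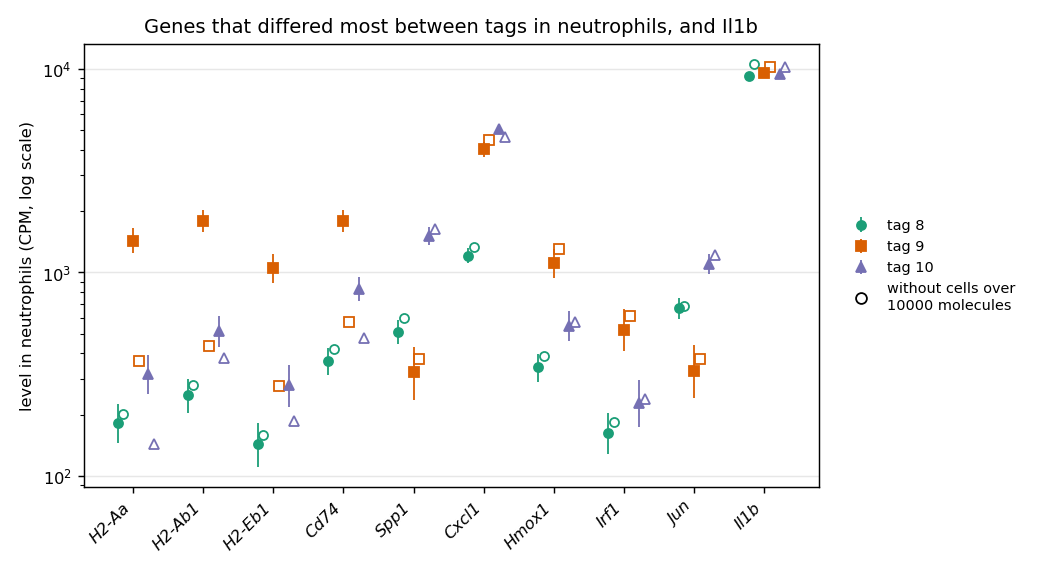
Levels in the neutrophils of each tag (y axis, CPM, log scale) for the genes with the widest ratios between tags and for Il1b. Filled points have exact Poisson 95% intervals for counting error only, and open points leave out the 4 cells over 10000 molecules. The MHC class II genes of tag 9 fall without the deep cell, H2-Aa from 1433 to 368 CPM. Il1b lies within 1.03-fold in the 3 tags with the 4 cells included.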

How the data were processed

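Single-cell RNA molecules of CD45+ tumour cells were analysed with the sample tag calls of the same cells. The deposited values are whole-number counts of unique molecules by gene in each cell. Per the file headers they were made by BD's Rhapsody WTA Multiplex pipeline, version 1.9.1, on GRCm38 with GENCODE M19, whereas the submitters' processing notes name GRCm39. The build of the headers was used. A targeted library is named in the series text, but the labels and the 24510 genes counted are those of a whole transcriptome library. No cell annotation was used, and some genes are not reported here.

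Counts were summed by tag and class, which held 139540 to 454229 molecules for neutrophils, and written as CPM. Neutrophils were compared with monocytes, with eosinophils, and among themselves, by edgeR 4.0.16 (glmQLFit and glmQLFTest, TMM factors, filterByExpr, tag as block) in R 4.3.3, with Benjamini-Hochberg adjustment over all genes tested. Every adjusted p in the text comes from these fits, of 3 tags in each class, and measures the spread between tags only. The tag is the pairing, since both classes of a tag come from the same mice, and deviations of the classes within a tag correlated at 0.0198 to 0.235 for monocytes and -0.0352 to 0.0606 for eosinophils. Monocytes held at least 2 molecules of Ly6c2 plus Chil3 and at least 1 of Csf1r, with under 20 of S100a8 plus S100a9. They held at most 1 of Csf3r plus Cxcr2 and no Cd79a, Ncr1 or Siglech. They also met the limits of the neutrophils on eosinophil, C1q and T cell genes. Eosinophils held at least 2 of Ccr3, Siglecf and Alox15 together and at least 1 of Ccr3. They held no Csf1r and under 20 of S100a8 plus S100a9, and met the same C1q and T cell limits. Their Csf3r plus Cxcr2 was not limited. The fits were tested on simulated data.

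Named genes were members of 34 gene lists, the 15 most abundant genes, the 10 highest and lowest called genes of each comparison at 50 CPM or more, and the 5 genes that differed most between tags. The members and lists were chosen with earlier results of these data known, and of 317 list genes 316 were in the table. Alternatives used DESeq2 1.42.0, other scalings, filters, thresholds and thinning, and left out each tag. Leaving out cells over 10000 molecules was chosen after seeing the data. Intervals are exact Poisson or Clopper-Pearson 95% intervals for counting error only. Promoters come from RefSeq (GRCm38.p6) and gene positions from GENCODE vM21.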

Additional observations from a re-analysis of the deposited data

How the results depend on the processing

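Genes higher and lower than in monocytes, 863 and 610 as reported, numbered 503 and 1726 with library totals. The lower genes numbered 1066 with no filter on low counts, 1215 without cells over 10000 molecules, and 346 to 616 when a tag was left out, where the higher genes numbered 695 to 792. Genes higher and lower than in eosinophils, 441 and 346 as reported, numbered 260 and 862 with library totals, 685 higher genes were called with no filter, and 196 lower genes with DESeq2. When a tag was left out they numbered 366 to 469 and 200 to 347. In the split by blood-type genes, 0 higher and 1 lower as reported, 1 was higher with library totals, 14 were higher and 0 lower with no filter, 0 lower with no replicate block or no thinning, 1 higher and 3 lower with another random seed, 6 and 6 when split by Retnlg alone, and 1 and 2 without cells over 10000 molecules. Leaving out a tag gave 0 to 1 higher and 0 to 3 lower genes. The block by tag is the design as reported, and with no replicate block 962 genes were higher and 745 lower than in monocytes and 453 and 360 than in eosinophils. Of the 151 called genes named against monocytes 147 kept their call with no replicate block, 127 with library totals and 142 with DESeq2. Of the 127 named against eosinophils 127, 105 and 122 did. The log2 differences of 2 genes against monocytes reversed, namely Col1a1, a collagen gene, at 1.29 without cells over 10000 molecules and Pmel, a pigment cell gene, at -1.63 to 4.38 when a tag was left out, the lowest without tag 8. Of the genes named though not called against monocytes, Cxcl1 went from above to below 0 at -0.52 with library totals, -0.27 with no filter on low counts, -0.089 with at least 50 molecules of S100a8 plus S100a9, -0.13 with a mitochondrial limit of 10% and -0.67 to 0.89 when a tag was left out. Gapdh did at -0.48, -0.23 and -0.057 with the first 3 of these, -0.11 with thinned cells and -0.055 to 0.19 when a tag was left out. Against eosinophils H2-Aa was at 0.12 with a mitochondrial limit of 10% and -1.27 to 0.35 when a tag was left out, and Vegfa at -0.26 with library totals. The neutrophil share of tag 8 was 3.13% with no filter on genes or mitochondrial molecules. The shares were 5.40, 2.29 and 3.24% with at least 10 molecules of S100a8 plus S100a9 and 2.34, 0.488 and 1.17% with at least 50. The cause of these changes was not tested. Depth limits the class sums, above all the 47 neutrophils of tag 9.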

Other observations

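Immediate early genes, which can rise while tissue is taken apart, were in part higher in the neutrophils. Of 12 listed genes all 12 passed the filter against monocytes, and 6 were higher and none lower. Against eosinophils 11 passed and 9 were higher, or 8 with library totals. Egr1 was at 4487, 2236 and 4817 CPM in neutrophils and 605, 459.7 and 1406 CPM in monocytes (log2 difference 2.85, SE 0.22, adjusted p = 1.89e-07), and Dusp1 at 3875, 3175 and 4678 against 963, 863 and 1389 CPM (log2 difference 2.41, SE 0.18, adjusted p = 1.79e-07). Neither overlapped between the classes. With library totals Atf3, Ier3, Jun and Zfp36 were not called (0.55, 0.94, 0.497 and 0.72). Atf3 was also lost without tag 9 (0.90), and Jun without tag 8 (0.92) or tag 10 (0.89). The part of tissue handling in the levels of cytokine and chemokine genes was not tested.

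Adhesion and lipid mediator genes differed by member. Of 10 adhesion genes all 10 passed against monocytes and 4 were higher. With library totals 3 were, where Ceacam1 lost its call (0.88), and without the deep cells of both classes 6 were. Itgal, the integrin chain of LFA-1, was at 337, 236 and 279 against 85, 147 and 121 CPM (log2 difference 1.87, SE 0.26, adjusted p = 9.04e-05), and Selplg, the selectin ligand PSGL-1, at 559, 502 and 364 against 146, 147 and 187 CPM (log2 difference 2.10, SE 0.22, adjusted p = 6.29e-06), both without overlap. Alox5, which starts leukotriene synthesis, was higher than in monocytes, at 96.9, 71.7 and 85.2 against 7.24, 7.4 and 9.98 CPM (log2 difference 3.91, SE 0.39, adjusted p = 3e-06). Hdc, which makes histamine, was at 3007, 3411 and 2563 CPM in neutrophils, 83.5, 60.2 and 47.6 CPM in monocytes and 879.7, 906 and 855 CPM in eosinophils. It was higher in neutrophils than in monocytes (log2 difference 6.11, SE 0.24, adjusted p = 1.6e-10) and than in eosinophils (log2 difference 2.33, SE 0.18, adjusted p = 8.48e-06), without overlap.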
